A study of Homo sapiens with 8 samples.

Results

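The 10 transcription factors that mark foregut origin and squamous identity in the esophageal lining, SOX2, PAX9, SIM2, TP63, KLF5, PITX1, FOXE1, BARX2, TFAP2A and TFAP2C, were taken by gene name from a table of raw counts for 58735 genes. Each name had 1 row, and all 10 were among the 15135 genes with enough reads to be tested. The RNA came from EPC2-hTERT, a human esophageal epithelial line immortalised with telomerase. Of its 8 libraries, 4 were of a stable derivative made with a lentivirus for miR-155-5p (miR-155OE) and 4 were of control cells (CTRL). Both groups carry hTERT, and both grew on inserts with pores of 0.4 µm for 2 days, then for 5 days with 1.8 mM calcium, before exposure at the air-liquid interface, where such cells stratify. Libraries held 33.4 to 52.7 M counts. The labels do not say what the control cells carry, which promoter drives the construct, or whether the line is 1 clone. They do not say that same-group libraries are separate cultures, so the p-values measure the spread between these libraries, which may be technical. The MIR155 hairpin gene and its host gene MIR155HG had 0 reads in each of the 8 libraries, where 3 reads would be 0.0573 to 0.0901 CPM (the reads of a gene scaled to the library, 1 M in all), so the counts do not check the labels.

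Foregut and squamous identity is set by a small group of transcription factors. SOX2 separates the esophagus from the airway in the embryo and persists in basal progenitor cells. The p63 protein of TP63 is required for a stratified epithelium, and PAX9 and PITX1 mark the epithelium of the mouth and upper digestive tract. SIM2 is a bHLH-PAS protein that works with ARNT, KLF5 is a zinc finger factor of proliferating epithelial cells, FOXE1 is a forkhead factor of the foregut and thyroid, BARX2 is a homeobox factor of surface epithelia, and TFAP2A and TFAP2C are AP-2 factors of ectodermal epithelia.

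A microRNA pairs through its seed, bases 2 to 8, with sites in the 3′ UTR of a messenger RNA and lowers its level or translation. The mature miR-155-5p sequence (RefSeq, GRCh38.p14, chr21:25573983-25574006, + strand) is shown because sites for it were looked for in all 10 factors, and its seed is in capitals.
hsa-miR-155-5p: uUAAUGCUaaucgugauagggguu
Only SIM2 and FOXE1 held a seed match in their longest annotated 3′ UTR (GENCODE 29, GRCh38), 1 each. That of SIM2 lacked the base opposite seed base 8 and was followed by an A, and that of FOXE1 matched the whole seed and was followed by an A. Both are shown with the match and its A in capitals, from chr21:36748818-36748846 (+ strand) and chr9:97856348-97856377 (+ strand).
SIM2 site: atattgaatagGCATTAAatgcaaaaata
FOXE1 site: caaaaactttcAGCATTAAatatttcagag
Any such match was present in 17.6% of the tested genes that have an annotated 3′ UTR. The 3′ UTRs of SOX2 (1122 bases), PAX9 (3263 bases) and PITX1 (1044 bases) held 0 matches of these kinds, as did those of the remaining 5 factors.

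The data showed 3 kinds of behaviour. SOX2, SIM2 and PITX1 were lower in miR-155OE, PAX9 was lower and TFAP2C higher when same-numbered libraries were compared, and TP63, KLF5, TFAP2A, FOXE1 and BARX2 did not pass the test. By the edgeR quasi-likelihood test, Benjamini-Hochberg adjusted over all tested genes, 3 of the 10 fell, 0 rose and 7 did not pass, where 1.05% of all genes fell, 2.17% rose and 3.22% were called either way. At an unadjusted p under 0.05, 4 factors were lower and 2 were higher, where 19.3% of all genes passed that level in either direction. DESeq2 called 4 lower and 1 higher, and limma-voom called 3 lower and 0 higher. With the library number as a block, 4 fell and 1 rose, against 5.17% of all genes that fell and 7.43% that rose (12.6% either way). All 488 genes called on group alone were also called with the block, so passing both fits is no further check. The authors' deposited table, at its own adjusted p under 0.05, has SOX2, SIM2, PITX1 and PAX9 lower and TFAP2C higher, against 1.7% of its genes lower and 3.03% higher (4.73% either way). In CPM, the 2 groups did not overlap for SOX2, SIM2, PITX1 and PAX9, all lower, where 5.25% of all genes were wholly lower and 6.16% wholly higher (11.4% either way). With 1 library left out the number called lay between 0 and 6, with 0 without miR-155OE library 1 or 3 or CTRL library 1, 2 or 3, and 6 without miR-155OE library 2. Among 1067 tested genes that the deposited file assigns to a transcription factor family, 15 rose and 13 fell (2.62%), and 73 rose and 46 fell with the block (11.2%).

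**Figure D1:**
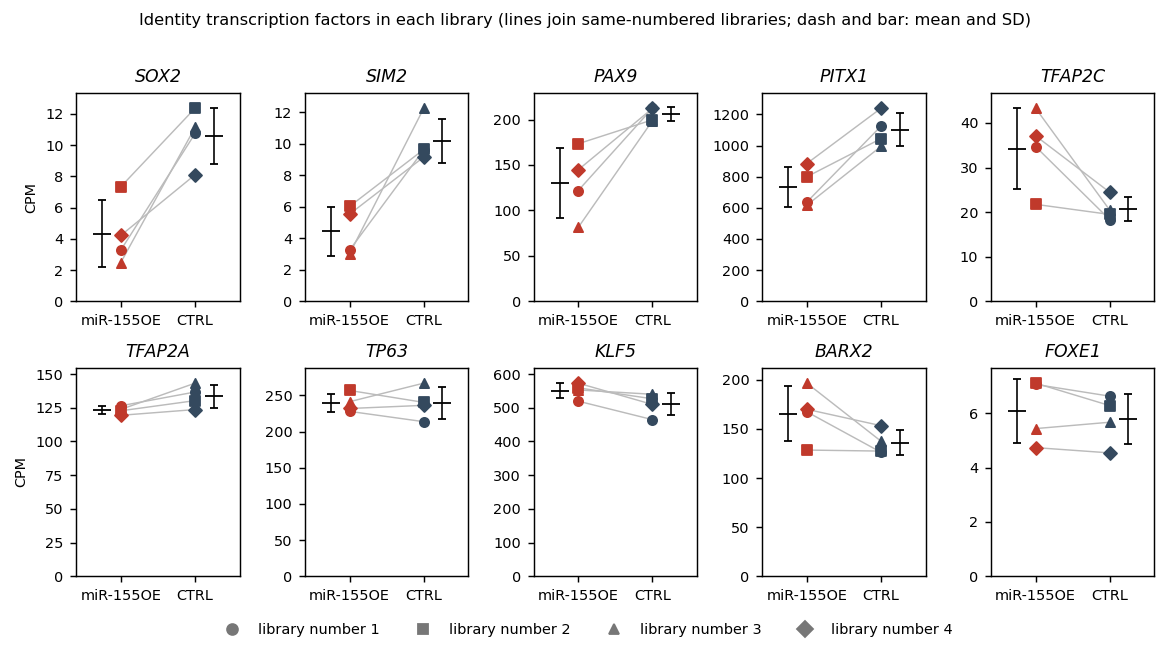
CPM (linear axes from 0) of each factor in 4 miR-155OE libraries (red, left) and 4 CTRL libraries (blue, right), with symbols for the library number, lines joining same-numbered libraries, and the mean with its SD beside each group. SOX2, SIM2, PAX9 and PITX1 lie lower in every miR-155OE library than in any CTRL library, whereas TFAP2C overlaps through miR-155OE library 2 at 21.7 CPM.

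SOX2 (ENSG00000181449; GRCh38, chromosome 3, 181711924 to 181714436), the HMG-box factor of the foregut, had 3.28, 7.33, 2.48 and 4.22 CPM in miR-155OE libraries 1 to 4, against 10.7, 12.4, 11.1 and 8.10 CPM in CTRL libraries 1 to 4. CPM are scaled by the TMM library size. The groups did not overlap, and the highest miR-155OE library, number 2, lay just under the lowest CTRL library, number 4. The means were 4.33 ± 2.13 CPM in miR-155OE and 10.6 ± 1.79 CPM in CTRL (SD, n = 4 each), so miR-155OE held 40.9% of the CTRL level. On the log2 scale the change was −1.29 with an SE of 0.28, at an adjusted p of 0.0403 by edgeR. These means rest on 100 to 262 reads in each miR-155OE library and 314 to 583 in each CTRL library. SOX2 lies within SOX2-OT, a noncoding gene on the same strand, which had 78 reads in all 8 libraries together and did not pass the test (log2 fold change 0.23, adjusted p = 0.837).

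SIM2 (ENSG00000159263; chromosome 21, 36699133 to 36749917) followed SOX2 closely. It had 3.25, 6.02, 3.00 and 5.53 CPM in miR-155OE libraries 1 to 4, against 9.62, 9.64, 12.3 and 9.16 CPM in CTRL libraries 1 to 4. As for SOX2, libraries 1 and 3 of miR-155OE were the lowest and the groups did not overlap. The means were 4.45 ± 1.55 CPM in miR-155OE and 10.2 ± 1.41 CPM in CTRL (SD, n = 4 each), so miR-155OE held 43.8% of the CTRL level. The change was −1.19 on the log2 scale with an SE of 0.22, at an adjusted p of 0.0219 by edgeR. ARNT, the partner that SIM2 dimerises with, stood at 36.6 ± 1.74 CPM in miR-155OE and 34.4 ± 1.47 CPM in CTRL (SD, n = 4 each; adjusted p = 0.495 by edgeR).

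PITX1 (ENSG00000069011; chromosome 5, 135027735 to 135034813), a paired-like homeodomain factor, was the most abundant of the 10. It had 637, 799, 617 and 884 CPM in miR-155OE libraries 1 to 4, against 1125, 1045, 995 and 1239.5 CPM in CTRL libraries 1 to 4. All 4 miR-155OE libraries lay under all 4 CTRL libraries. The means were 735 ± 129 CPM in miR-155OE and 1101 ± 107 CPM in CTRL (SD, n = 4 each), so miR-155OE held 66.7% of the CTRL level. The change was −0.58 on the log2 scale with an SE of 0.13, at an adjusted p of 0.0375 by edgeR. Among the genes that overlap it on the opposite strand, C5orf66 averaged 2.22 CPM in miR-155OE and 2.57 CPM in CTRL and did not pass the test (adjusted p = 0.751).

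PAX9 (ENSG00000198807; chromosome 14, 36657568 to 36679715), the paired box factor, had 122, 173, 81.2 and 145 CPM in miR-155OE libraries 1 to 4, against 212, 199.6, 199 and 212 CPM in CTRL libraries 1 to 4. The CTRL libraries lay within a narrow band and every miR-155OE library fell below it. The means were 130.2 ± 38.9 CPM in miR-155OE and 206 ± 7.61 CPM in CTRL (SD, n = 4 each). The coefficient of variation was 29.9% in miR-155OE and 3.70% in CTRL. On group alone PAX9 did not pass the test (−0.66 on the log2 scale, SE 0.18, adjusted p = 0.0751 by edgeR). With the library number as a block it was lower (−0.71 on the log2 scale, SE 0.14, adjusted p = 0.0133 by edgeR).

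TFAP2C (ENSG00000087510; chromosome 20, 56629302 to 56639283), which encodes AP-2 gamma, was higher with the block. It had 34.7, 21.7, 43.3 and 37.1 CPM in miR-155OE libraries 1 to 4, against 18.3, 19.5, 20.4 and 24.4 CPM in CTRL libraries 1 to 4. The groups overlapped, because miR-155OE library 2 lay below CTRL library 4. The means were 34.2 ± 9.07 CPM in miR-155OE and 20.7 ± 2.67 CPM in CTRL (SD, n = 4 each). By edgeR the log2 change of TFAP2C was 0.73 on group alone, which did not pass (SE 0.18, adjusted p = 0.0563), and 0.70 with the block, which did (SE 0.13, adjusted p = 0.0104).

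TFAP2A (ENSG00000137203; chromosome 6, 10393186 to 10419659), its AP-2 alpha relative, had 126, 123, 124 and 119 CPM in miR-155OE libraries 1 to 4, against 137, 130.3, 143 and 124 CPM in CTRL libraries 1 to 4. The lowest CTRL library overlapped the miR-155OE range. Its log2 fold change was −0.12 (95% interval −0.26 to 0.02, edgeR adjusted p = 0.359). The AP-2 corepressors KCTD1 and KCTD15 rose, KCTD1 to 58.5 ± 2.69 CPM in miR-155OE against 47.5 ± 1.83 CPM in CTRL and KCTD15 to 152 ± 20.5 CPM in miR-155OE against 110.0 ± 7.06 CPM in CTRL (SD, n = 4 each). By edgeR the log2 change of KCTD1 was 0.30 (SE 0.06, adjusted p = 0.0320) and that of KCTD15 was 0.47 (SE 0.10, adjusted p = 0.0340). When each library was left out in turn, KCTD1 kept its call in 1 of 8 fits (highest adjusted p = 0.0928) and KCTD15 in 2 of 8 (highest adjusted p = 0.0963).

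TP63 (ENSG00000073282; chromosome 3, 189631416 to 189897279) showed no change past the test. It had 228, 257, 241 and 232 CPM in miR-155OE libraries 1 to 4, against 214, 240, 267 and 236 CPM in CTRL libraries 1 to 4. The groups overlapped over most of their range. The log2 fold change was 0.00, and its 95% interval of −0.18 to 0.18 leaves room for changes of that size (edgeR adjusted p = 0.996). Counts per gene do not part the TA and ΔN isoforms of p63, so a shift between them would not be seen here.

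KLF5 (ENSG00000102554; chromosome 13, 73054976 to 73077542) had 519.5, 559, 553 and 573 CPM in miR-155OE libraries 1 to 4, against 465, 526, 539.9 and 509.7 CPM in CTRL libraries 1 to 4. It was higher in all 4 same-numbered pairs, by little, and the groups overlapped. The log2 fold change was 0.11 (95% interval −0.05 to 0.27, edgeR adjusted p = 0.456). FOXE1 (ENSG00000178919; chromosome 9, 97853254 to 97856715) had 7.06, 7.11, 5.44 and 4.74 CPM in miR-155OE libraries 1 to 4, against 6.63, 6.28, 5.67 and 4.54 CPM in CTRL libraries 1 to 4. In FOXE1 libraries 1 and 2 of each group stood above libraries 3 and 4, and the log2 fold change was 0.07 (95% interval −0.30 to 0.45, adjusted p = 0.856).

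BARX2 (ENSG00000043039; chromosome 11, 129375940 to 129452279) had 167, 128, 197 and 170.0 CPM in miR-155OE libraries 1 to 4, against 126, 127, 137 and 153 CPM in CTRL libraries 1 to 4. Its libraries stood in nearly the order of TFAP2C, with miR-155OE library 3 highest and miR-155OE library 2 within the CTRL range. By edgeR its log2 change was 0.28 on group alone (SE 0.12, adjusted p = 0.227) and 0.27 with the block (SE 0.08, adjusted p = 0.0616), so it passed neither fit. When miR-155OE library 2 was left out, its log2 change was 0.39, at an adjusted p of 0.0280.

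**Figure D2:**
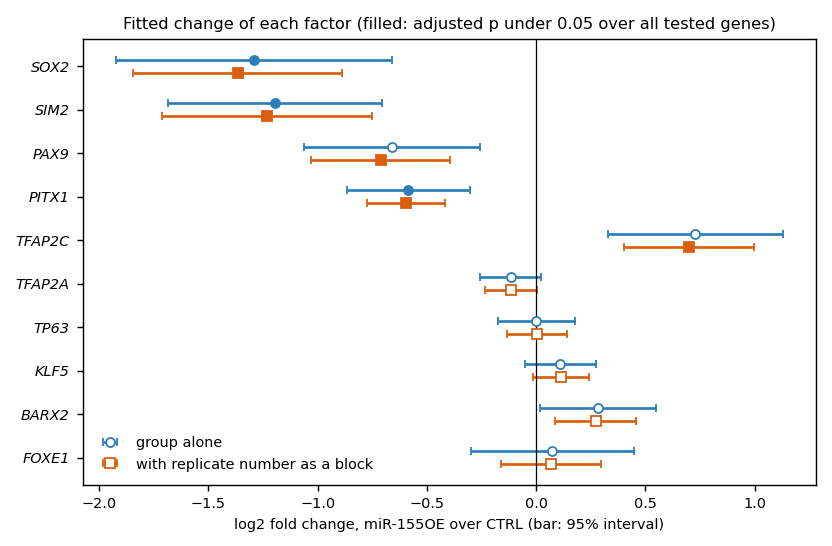
Log2 fold change of each factor, miR-155OE over CTRL, with its 95% interval from the fit on group alone (blue circles) and from the fit with the library number as a block (orange squares), where filled symbols have an adjusted p under 0.05. SOX2, SIM2 and PITX1 are filled in both fits at −1.29, −1.19 and −0.58 on group alone, PAX9 and TFAP2C are filled only with the block, and the interval of TP63 runs from −0.18 to 0.18.

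By same-numbered pairs, log2 ratios of CPM + 0.5 were negative in 4 of 4 pairs for SOX2, SIM2, PITX1, PAX9 and TFAP2A and positive in 4 of 4 for TFAP2C, BARX2 and KLF5. Over all tested genes, 16.9% were lower and 18.8% higher in 4 of 4 pairs (35.6% one way). The pairs differed in size. SOX2 ratios were −1.57, −0.72, −1.96 and −0.87 in pairs 1 to 4, SIM2 ratios were −1.43, −0.64, −1.86 and −0.68, and PAX9 ratios were −0.80, −0.20, −1.29 and −0.55. Those of PITX1 were −0.82, −0.39, −0.69 and −0.49, and those of TFAP2C were 0.91, 0.15, 1.07 and 0.59. Pair 2 gave the smallest ratio for all 5 of these factors and pair 3 the largest for 4 of them, PITX1 being the exception. The median absolute log2 ratio over 10267 genes of at least moderate level was also smallest in pair 2 (0.11) and largest in pair 3 (0.18), with 0.14 in pair 1 and 0.13 in pair 4. What pair 2 shares was not tested.

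**Figure D3:**
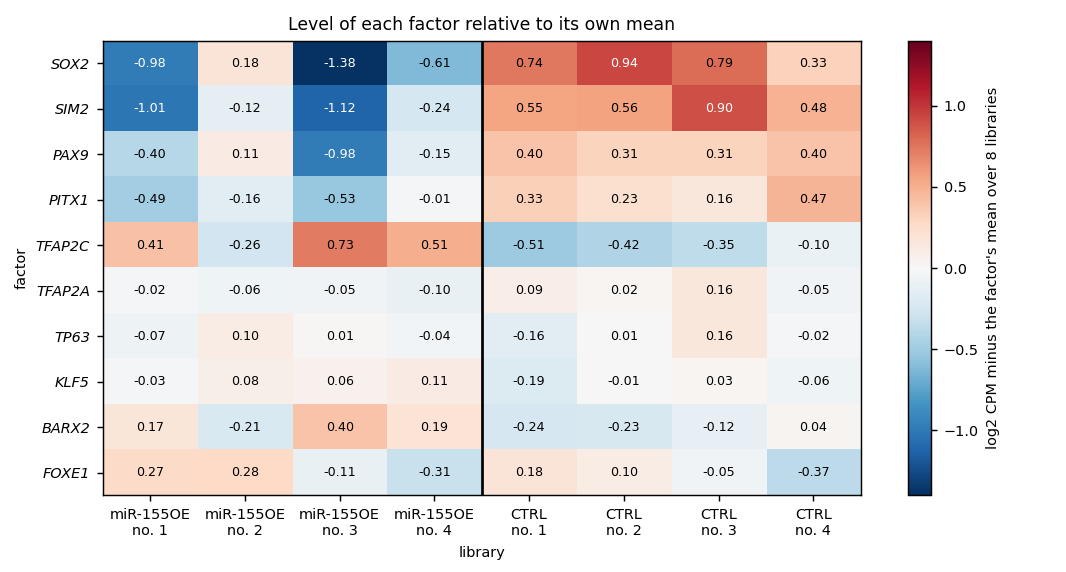
Log2 CPM of each factor in each library, centred on the factor's mean over the 8 libraries, with miR-155OE on the left. In miR-155OE library 3 SOX2 stands at −1.38, SIM2 at −1.12 and PAX9 at −0.98 while TFAP2C stands at 0.73 and BARX2 at 0.40, and in miR-155OE library 2 all 5 lie within 0.26 of their means.

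The 3 calls on group alone depended on the libraries used. So did the number called over all genes, 488 with all 8 libraries and 125 to 1274 with 1 left out. SOX2 kept its call without miR-155OE library 2 or CTRL library 4 and lost it without each of the other 6 (highest adjusted p = 0.114, without miR-155OE library 1). SIM2 kept it without miR-155OE library 2 or 4 or CTRL library 4 (highest adjusted p = 0.0762, without CTRL library 3), and PITX1 kept it without miR-155OE library 2 or 4 (highest adjusted p = 0.110, without miR-155OE library 1). With the block, SOX2, SIM2 and PITX1 stayed below an adjusted p of 0.05 whichever pair was left out. Without pair 1, PAX9 (adjusted p = 0.0758) and TFAP2C (adjusted p = 0.0646) lost their calls. Libraries of unequal number also deviated together, miR-155OE 3 with CTRL 4 more than with CTRL 3, so the pairing behind the block is less sure for number 3.

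Levels of different genes were compared as mean CPM per 1 kilobase of the deposited gene length. In miR-155OE the order was PITX1 (209), KLF5 (142), BARX2 (45.3), TP63 (32.1), PAX9 (21.6), TFAP2A (14.9), TFAP2C (11.4), FOXE1 (1.76), SOX2 (1.72) and SIM2 (0.581). In CTRL the order was PITX1 (314), KLF5 (131), BARX2 (37.2), PAX9 (34.1), TP63 (32.1), TFAP2A (16.1), TFAP2C (6.87), SOX2 (4.21), FOXE1 (1.67) and SIM2 (1.33). PAX9 thus stood above TP63 in CTRL and below it in miR-155OE, and SOX2 stood above FOXE1 in CTRL. Neighbours whose library ranges overlapped were PAX9 with TFAP2A and FOXE1 with SOX2 in miR-155OE, and BARX2 with PAX9, PAX9 with TP63 and FOXE1 with SIM2 in CTRL. Among the 1067 tested transcription factor genes, CTRL levels per length placed PITX1 4th and KLF5 11th, whereas SOX2 stood at rank 346 and SIM2 at rank 637.

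Other genes that overlap the factors had few reads. SLC25A21, opposite PAX9, averaged 0.680 CPM in miR-155OE and 0.672 CPM in CTRL. AC008406.3, opposite PITX1, averaged 0.542 CPM in miR-155OE and 0.350 CPM in CTRL. Opposite TFAP2A, TFAP2A-AS2 averaged 0.968 CPM in miR-155OE and 1.00 CPM in CTRL and TFAP2A-AS1 averaged 0.245 CPM in miR-155OE and 0.347 CPM in CTRL. None of these 4 passed edgeR's test. AL079303.1 at PAX9 had 36 reads in all libraries together, AP000697.1 at SIM2 had 12, and MIR944 and AC078809.1 at TP63 had 0.

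Genes around the changed factors were also examined. Of genes within 1 Mb and of at least moderate level, 0 of 2 near SOX2, 0 of 10 near SIM2, 0 of 14 near PITX1, 0 of 4 near PAX9 and 0 of 5 near TFAP2C passed edgeR's test on group alone. At an unadjusted p under 0.05 the counts near them were 0, 1, 2, 0 and 2 in that order (19.3% of all genes), and DESeq2 and limma-voom called 0 near each. With the block 0 passed near SOX2, SIM2, PAX9 and TFAP2C, and 2 rose and 1 fell near PITX1. Of all genes 3.22% passed on group alone and 12.6% with the block. The median log2 fold changes of these neighbours were −0.06 near SOX2, −0.01 near SIM2, 0.05 near PITX1, 0.14 near PAX9 and 0.12 near TFAP2C. That of all genes of such level was 0.00.

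Promoter sequence is given for SOX2 and PAX9, which were both lower with the block and have an entry in the RefSeq table (GRCh38.p14), as the 250 bases before the start site. The PITX1 entry lies inside the gene as the deposited file bounds it and is not shown (GC 79.2%, 10 matches to the KLF and SP motif). Both strands were searched for TATAAA (the TATA box), CCAAT (the CCAAT box), the SOX core ACAANG, the AP-2 motif GCCNNNGGC and the KLF and SP motif GGGNGGG, and matches are in capitals. The regions are chr3:181711675-181711924 (+ strand) and chr14:36657318-36657567 (+ strand).
SOX2 promoter: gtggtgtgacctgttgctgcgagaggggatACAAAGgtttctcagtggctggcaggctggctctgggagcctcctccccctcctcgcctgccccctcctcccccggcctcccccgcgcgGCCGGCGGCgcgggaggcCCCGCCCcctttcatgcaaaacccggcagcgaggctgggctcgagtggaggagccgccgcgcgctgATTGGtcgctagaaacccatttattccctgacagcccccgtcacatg
PAX9 promoter: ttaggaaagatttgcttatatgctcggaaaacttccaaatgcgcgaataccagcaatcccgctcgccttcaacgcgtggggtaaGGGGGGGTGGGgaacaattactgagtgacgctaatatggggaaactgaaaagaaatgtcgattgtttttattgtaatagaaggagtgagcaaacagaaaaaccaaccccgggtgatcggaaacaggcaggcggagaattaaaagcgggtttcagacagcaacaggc
The SOX2 stretch held 1 match each to the SOX, AP-2, KLF and SP, and CCAAT motifs, and that of PAX9 held 2 overlapping KLF and SP matches and none to the other 4 motifs. Over 35116 promoters of the same length, 30.9% held the SOX core, 19.8% the AP-2 motif, 51.6% the KLF and SP motif, 32.0% CCAAT and 10.7% TATAAA. GC content was 68.8% for SOX2 and 46.8% for PAX9, where the median of all was 58.0%. The bHLH-PAS core ACGTG and the forkhead motif TGTTTAC, also searched, had 0 matches in the 7 factors with an entry, where 18.5% of all promoters held ACGTG and 2.98% TGTTTAC. A match is a description of the sequence and not a bound site. The table has entries for 7 of the 10 factors, and SIM2, BARX2 and TFAP2C are named only.

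Members of the same gene families were examined next. Of 19 tested family relatives, 1 rose and 18 did not pass (5.26% called, against 3.22% of all genes). With the block 6 rose and 1 fell (36.8% called, against 12.6% of all genes). The riser in both fits was KLF13, a Krüppel-like factor, at 136 ± 7.91 CPM in miR-155OE and 110.4 ± 7.01 CPM in CTRL (SD, n = 4 each). By edgeR its log2 change was 0.31 (SE 0.07, adjusted p = 0.0451), and it kept its call in 2 of 8 fits that left out 1 library (highest adjusted p = 0.126). TP73, the p53-family relative of TP63, rose with the block (0.52 on the log2 scale, adjusted p = 0.00883) and SOX4 fell (−0.25, adjusted p = 0.0291). The median log2 fold change of the relatives was 0.05, against −0.01 for all tested genes. SOX1, SOX3, PAX1, TFAP2B and TFAP2D had 0 reads in every library, where 3 reads would be 0.0573 to 0.0901 CPM.

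Of 19 tested cofactors, ubiquitin ligases and chromatin regulators of these factors, 2 rose (KCTD1 and KCTD15, above) and 17 did not pass. On group alone 10.5% were thus called, against 3.22% of all genes. With the block 2 rose and 2 fell (21.1% called, against 12.6% of all genes). NSD2, a histone methyltransferase, fell with the block (−0.45 on the log2 scale, adjusted p = 0.0239). Of 29 other tested squamous transcription factors, 0 passed edgeR's test on group alone, 6 were higher and 3 lower at an unadjusted p under 0.05 (19.3% of all genes), DESeq2 called 3 higher and 2 lower, and limma-voom called 0 higher and 1 lower. With the block 8 rose and 3 fell (37.9% called, against 12.6% of all genes). DLX3, a homeobox factor of differentiating keratinocytes, rose with the block (0.67, adjusted p = 0.0140), as did GRHL2, a grainyhead factor of epithelial junctions (0.23, adjusted p = 0.0254), and ELF3, an ETS factor of epithelial differentiation, fell with it (−0.85, adjusted p = 0.0116).

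Of 26 tested p63 target genes, 1 rose and 25 did not pass (3.85% called, against 3.22% of all genes), with a median log2 fold change of 0.04. EGFR, the epidermal growth factor receptor, was the riser, at 242 ± 15.8 CPM in miR-155OE and 159 ± 21.7 CPM in CTRL (SD, n = 4 each). Its log2 change was 0.60 by edgeR (SE 0.10, adjusted p = 0.0139). It kept its call in 8 of 8 fits that left out 1 library (highest adjusted p = 0.0495). With the block 3 rose (EGFR, DLX3 and the hyaluronan synthase HAS3) and 3 fell (23.1% called, against 12.6% of all genes). KRT5 and KRT14, the basal keratin pair, named after their values were seen, did not pass in either fit. KRT5 averaged 9621 ± 1362 CPM in miR-155OE and 10934 ± 1042 CPM in CTRL, and KRT14 averaged 7581 ± 1562 CPM in miR-155OE and 7837 ± 1448 CPM in CTRL (SD, n = 4 each).

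Lists of differentiated esophageal mucosa and of the epidermis were set beside the factors. Like all the lists, they were chosen with earlier results of these data known, so their shares are descriptions. Of 22 tested mucosal genes 1 fell on group alone and 21 did not pass (4.55% called, median log2 fold change −0.68). With the block 13 fell and 0 rose (59.1% called). Of all genes 1.05% fell on group alone and 5.17% with the block. KRT78 fell in both fits (−0.68 on group alone, adjusted p = 0.0462 by edgeR), though it kept its call on group alone in 1 of 8 fits that left out 1 library. With the block, KRT4, a keratin of the suprabasal esophagus, fell (−3.0, adjusted p = 0.00696), as did SPINK7, a protease inhibitor (−1.81, adjusted p = 0.00812). CRABP2 and ENDOU of this list had positive log2 fold changes (0.09 and 0.26) and did not pass in either fit. The median log2 ratio of the mucosal genes was −1.0, −0.20, −1.19 and −0.52 in pairs 1 to 4, smallest in pair 2 and largest in pair 3, as for SOX2, SIM2 and PAX9. Of 21 tested epidermal genes 6 rose on group alone (28.6%) and 13 with the block (61.9%), and 0 fell in either. Of all genes 2.17% rose on group alone and 7.43% with the block. KRT1, DSC1 and DSG1 had the lowest p (2.73, 3.84 and 1.64 on the log2 scale). With 1 library left out, KRT1 kept its call in 8 of 8 fits, DSC1 in 6 and DSG1 in 4. FLG, FLG2 and LOR had negative log2 fold changes (−0.12, −0.19 and −0.09) and did not pass in either fit. The median log2 ratio of the epidermal genes was 1.16, 0.91, 1.87 and 0.58 in pairs 1 to 4.

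**Figure D4:**
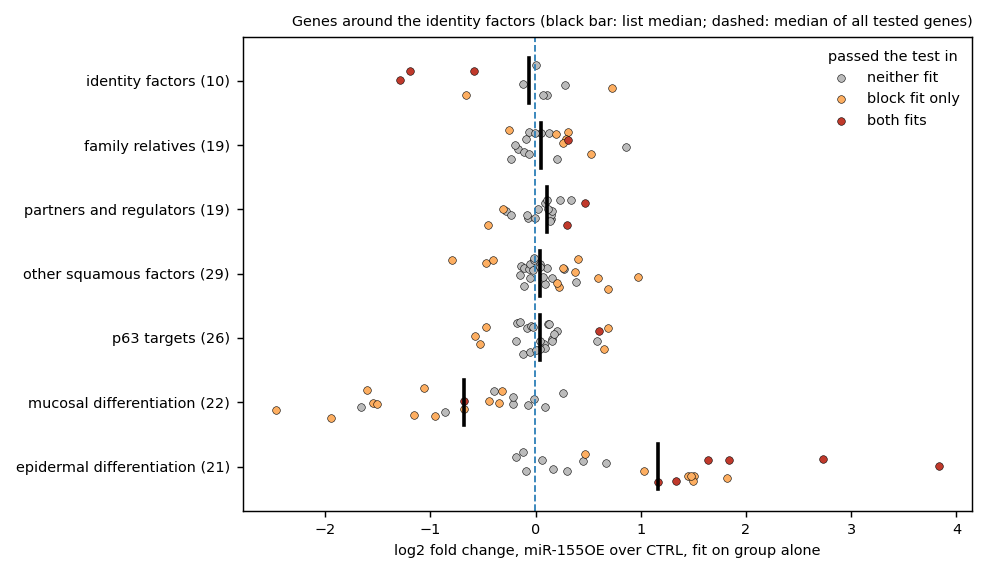
Log2 fold change (miR-155OE over CTRL, fit on group alone) of every tested gene in 7 lists, with the number tested in brackets, the list median as a black bar and the median of all tested genes as a dashed line. Red points passed the test in both fits, orange points with the block only and grey points in neither. The medians lie at −0.06 for the identity factors, 0.04 for p63 targets, −0.68 for mucosal genes and 1.16 for epidermal genes.

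Markers of squamous and of other cell types were summed. The sum of 13 squamous markers was 80746 to 104969 CPM in miR-155OE and 88316 to 108609 CPM in CTRL, with most of it from KRT6A (31154 CPM in miR-155OE and 36240 CPM in CTRL) and KRT16 (22165 CPM in miR-155OE and 24002 CPM in CTRL). Of the 13, 1, the calcium-binding protein S100A2, fell (−0.51 on the log2 scale, adjusted p = 0.0349 by edgeR). On group alone 7.69% of the squamous markers were thus called, against 3.22% of all genes. The S100A2 call was not refitted with 1 library left out. Of 19 transcription factors of columnar, airway or foregut mesenchymal tissue only 4 had enough reads to be tested and 0 passed edgeR's test. At an unadjusted p under 0.05 1 was lower, and DESeq2 and limma-voom called 0. Of all genes 3.22% passed edgeR's test on group alone and 19.3% had an unadjusted p under 0.05. CDX1, CDX2, NKX2-1 and PDX1 had 0 reads in all 8 libraries. Fibroblast markers summed to 98.2 to 221 CPM in miR-155OE and 92.9 to 145 CPM in CTRL, with COL1A1 the most abundant (156 CPM in miR-155OE and 116 CPM in CTRL) and COL3A1, COL1A2, THY1, LUM and DCN at 0 reads. Immune markers summed to 9.29 to 16.5 CPM in miR-155OE and 8.39 to 10.6 CPM in CTRL, columnar markers to 35.2 to 48.4 CPM in miR-155OE and 45.4 to 54.0 CPM in CTRL. Endothelial and melanocyte markers reached at most 3.34 CPM. With the block, by edgeR, COL1A1 was higher (log2 fold change 0.40, adjusted p = 0.0451), as was the monocyte marker CD14 (0.44, adjusted p = 0.0239), and the simple-epithelial keratin KRT18 was lower (−0.28, adjusted p = 0.0398), each in 4 of 4 pairs. On group alone COL1A1, CD14 and KRT18 did not pass edgeR's test (adjusted p = 0.322, 0.171 and 0.359). Over all tested genes, 12.6% passed with the block and 35.6% went one way in 4 of 4 pairs. The part of these markers in the changes of the 10 factors was not tested. In RNA from whole cultures, fewer cells of a layer and less RNA per cell cannot be told apart.

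The genes whose log2 CPM were most like those of the 3 factors called on group alone were found over the 8 libraries among 10266 genes, by Pearson's r, as a description of these libraries. For SOX2 they were ADAM9 (r = 0.993), ZNF395 (0.989), CAV1 (0.988), MEIS1 (0.988) and B3GNT3 (0.987). For SIM2 they were AC245041.2 (0.991), XPO7 (0.99), TWSG1 (0.988), IKBIP (0.985) and FAM160B2 (0.984), and for PITX1 they were BIN3 (0.985), SPINT1 (0.981), MSI2 (0.980), DUSP10 (0.977) and MAEA (0.976). All 15 were lower in miR-155OE on average, a direction fixed by choosing them for high r with 3 factors that were lower.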

How the data were processed

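Per the submitters' processing notes, the authors used HISAT2 2.0.5, featureCounts 1.5.0-p3 and DESeq2 on GRCh38. Strand setting and annotation release are not given in the sources used here, so reads of genes that overlap cannot be told apart. Raw counts, as deposited, are whole numbers for each gene. The authors' second deposited table holds a normalised signal, which is the raw count divided by 1 factor per library, the authors' log2 fold change and their p-value and adjusted p-value, and was used only for its calls.

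Library totals were 33.4 to 52.7 M counts. In R 4.3.3, edgeR 4.0.16 (filterByExpr, TMM, quasi-likelihood F test on group alone, FDR 0.05) tested 15135 genes. SEs were derived from the fold change and the F statistic, and 95% intervals from the SE. DESeq2 1.42.0 and limma 3.58.1 (voom) were alternatives. Pair ratios used CPM + 0.5. Genes of at least moderate level had a mean log2 CPM of at least 2. Libraries of 1 group differed by more than counting error (chi-square per degree of freedom 15.8 to 82.5).

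Pairing was checked by the correlation, over 10267 genes, between the deviations of 2 same-numbered libraries from their own group. It was 0.578 for number 1, 0.497 for number 2, 0.184 for number 3 and 0.607 for number 4. All 4 exceed 0.1, the level set for treating equal numbers as pairs. Unequal numbers exceeded it too: miR-155OE 3 with CTRL 4 (0.399), 2 with 1 (0.275), 1 with 2 (0.267) and 4 with 3 (0.203), so libraries 1 and 2 also stood apart from 3 and 4, and CTRL 3 was closer to miR-155OE 4 than to miR-155OE 3. Genes are not independent replicates.

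The factors, the gene lists and the rules were chosen with earlier results of these data known. The text names all 10 factors, the genes that overlap them, up to 3 called members of each list by lowest p, and the 5 genes most like each factor called on group alone. ARNT, KRT5, KRT14, KRT6A, KRT16, CRABP2, ENDOU, FLG, FLG2, LOR, the miR-155 genes and genes at 0 reads were named outside that rule. The p63 targets that fell with the block are counted but not reported here by name. The methods were tested on simulated data. 3′ UTRs came from GENCODE 29, whose IDs hold all 58735 genes of the file. Figures were drawn with Python 3.11.15, pandas 2.3.3, numpy 2.4.6 and matplotlib 3.10.9.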

Additional observations from a re-analysis of the deposited data

Results flagged for a closer look

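Among the 10 factors in 2 groups of 4 libraries (20 sets of 4 values), 1 library stood apart from the rest of its group. SIM2 reached 12.26 CPM in CTRL library 3, where the other CTRL libraries lay between 9.16 and 9.64 CPM. Its gap to the nearest library was 0.845 of the group's range, above Dixon's 95% critical value for 4 libraries. Chance gives about 1 such set in 20. Without that library SIM2 had an adjusted p of 0.0762 by edgeR on group alone. SIM2 also lost its call without CTRL library 1 or 2 or miR-155OE library 1 or 3.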

How the results depend on the processing

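The number of factors that passed the test was 3 by edgeR on group alone. It was 5 with DESeq2, 5 with no filter on low counts, 5 with the replicate block, and 3 to 6 with the block and 1 pair left out. Alternatives added after seeing the data gave 6 (DESeq2 with the block) and 5 (limma-voom with the block). Leaving out 1 library gave 0 to 6 factors, 0 to 4 of them lower and 0 to 2 higher. The count was 0 without miR-155OE library 1 or 3 or CTRL library 1, 2 or 3, 2 without miR-155OE library 4 or CTRL library 4, and 6 without miR-155OE library 2. Of the factors, 1 was higher by library totals alone, DESeq2, no filter, the replicate block and limma-voom with the block, and 2 by DESeq2 with the block. Over all genes the count was 488, and 1223 with DESeq2, 927 with no filter, 1908 with the replicate block, 1907 and 1953 with DESeq2 and limma-voom under the block, 623, 2059, 1389 and 971 with the block and without pair 1, 2, 3 or 4, and 125 to 1274 without 1 library. Leaving out 1 library moved the log2 change of TP63 between −0.047 and 0.057 and that of FOXE1 between −0.025 and 0.18. The sign was negative for TP63 without CTRL library 1 or 4 or miR-155OE library 2, and in the replicate block without pair 1 (−0.023) or pair 2 (−0.027), and for FOXE1 without miR-155OE library 1 or 2 or CTRL library 4. None of these passed the test. The cause of these shifts was not tested. SOX2 and SIM2 rest on 100 to 642 reads a library, which limits their precision.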

Other observations

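Of the 15 genes named for their likeness to SOX2, SIM2 and PITX1, 5 lie on chromosome 8 (ADAM9, ZNF395, XPO7, FAM160B2 and BIN3), where 3.43% of the genes compared lie on that chromosome. Their log2 fold changes were −0.58, −0.80, −0.28, −0.45 and −0.32, negative by that choice. Where 2 groups do not overlap, r over all libraries largely follows the group difference. The 3.43% is a share of all genes compared, and the share among genes lower in miR-155OE was not examined. Why these 5 genes share a chromosome was not tested. The factors themselves lie on chromosomes 3, 21 and 5.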
